A study of Mus musculus with 24 samples.

Results

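The Hoxd cluster and its neighbour Evx2 were followed in a map of open chromatin of mouse small intestinal epithelium from aged and young animals. The members were the peaks of the deposited annotation table whose nearest gene was Evx2, Hoxd13, Hoxd12, Hoxd11, Hoxd10, Hoxd9, Hoxd8, Hoxd4, Hoxd3 or Hoxd1, within 50000 bp of that gene's transcription start site (TSS). This gave 17 of 150646 consensus peaks, at 8 of the 10 genes. No peak was assigned to Hoxd10 or Hoxd4. The locus was chosen by the log2 fold changes and calls of aged against young in these same libraries, so the aged and young values below describe it and are not tested again.

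The assay was ATAC-seq, which marks open DNA by letting Tn5 transposase insert adapters into it, on 3 aged and 3 young libraries (aged 1, 2 and 4 and young 1, 2 and 4). All were from C57BL/6JRj mice with no genetic change or treatment in the labels, and cells of both ages were freshly taken from the small intestine and sorted for EpCam on their surface and no CD45. The labels give the ages as aged and young. The series' design text gives 20 to 22 months for aged and 2 to 3 months for young mice, in sentences about other assays. The labels name no segment of the small intestine for these libraries. Nor do they tie each library to a mouse of its own, so errors here are the spread over these 6 libraries.

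Hox genes encode homeodomain transcription factors that give cells along the head-to-tail axis their positional identity, and genes at the Hoxd13 end of the cluster act more posteriorly than those at the Hoxd1 end. Evx2, a homeodomain gene related to the fly gene even-skipped, lies beyond Hoxd13 and shares distant enhancers with it. In the embryo the cluster is held closed by Polycomb proteins where it is silent and is opened by enhancers in the gene deserts on both sides. In the gut the posterior Hoxd genes are best known in the hindgut, its sphincters and the mesoderm of its wall.

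In the aged libraries, peaks at Evx2, Hoxd11, Hoxd9 and Hoxd1 were lower than in the young ones, by a fitted factor of 3.06 at an Evx2 exon to 11.0 at the Hoxd11 promoter, and a peak at Hoxd3 was 2.83-fold higher. Differences at the peaks of Hoxd13, Hoxd12 and Hoxd8 were not called. Summed over all 17 peaks, the cluster held 12.5, 11.3 and 14.4 normalised counts (CPM, counts scaled to library size) in aged 1, 2 and 4, against 22.3, 21.4 and 24.7 CPM in young 1, 2 and 4. The groups did not overlap, and edgeR's fitted level was 1.77 times higher in young than in aged libraries. In bulk libraries, fewer cells with an open locus and less opening per cell cannot be told apart.

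Promoter sequence is shown for 3 genes whose start lay in or beside a peak that was lower in aged libraries, Hoxd11, Hoxd1 and Hoxd9, and for Hoxd13, whose start lay in a peak that was not called. Each line is the 250 bases before the TSS, on the + strand of chromosome 2, from RefSeq, build GRCm38.p6, and capitals mark GC boxes, the letters GGGCGG on either strand, a motif of Sp-family factors. The stretches are chr2:74682073-74682322 for Hoxd11, chr2:74762730-74762979 for Hoxd1, chr2:74697513-74697762 for Hoxd9 and chr2:74667975-74668224 for Hoxd13.
Hoxd11: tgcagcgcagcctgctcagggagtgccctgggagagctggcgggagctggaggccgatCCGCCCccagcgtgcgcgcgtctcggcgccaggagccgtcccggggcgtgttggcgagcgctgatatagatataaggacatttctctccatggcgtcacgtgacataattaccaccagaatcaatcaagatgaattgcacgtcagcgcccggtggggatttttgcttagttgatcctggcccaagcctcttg
Hoxd1: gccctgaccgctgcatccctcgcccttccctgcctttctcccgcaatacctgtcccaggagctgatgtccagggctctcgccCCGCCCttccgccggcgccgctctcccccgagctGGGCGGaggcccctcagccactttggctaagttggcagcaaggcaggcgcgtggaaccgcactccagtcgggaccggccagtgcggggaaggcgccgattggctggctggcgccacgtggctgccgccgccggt
Hoxd9: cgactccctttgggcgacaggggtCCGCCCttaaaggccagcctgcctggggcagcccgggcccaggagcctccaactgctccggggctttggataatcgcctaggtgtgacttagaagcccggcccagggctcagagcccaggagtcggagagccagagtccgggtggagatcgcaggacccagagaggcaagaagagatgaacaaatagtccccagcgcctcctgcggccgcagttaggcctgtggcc
Hoxd13: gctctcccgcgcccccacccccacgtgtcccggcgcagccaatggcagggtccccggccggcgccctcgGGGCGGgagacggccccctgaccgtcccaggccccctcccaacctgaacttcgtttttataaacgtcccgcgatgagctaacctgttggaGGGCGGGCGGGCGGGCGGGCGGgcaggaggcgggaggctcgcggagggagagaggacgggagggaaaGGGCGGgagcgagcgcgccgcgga

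These promoters are rich in G and C. In the 300-base RefSeq windows, which run 50 bases past the TSS, the GC share was 62.0% at Hoxd11, 69.7% at Hoxd1, 68.3% at Hoxd9 and 74.3% at Hoxd13, against a median of 52.7% over 32851 promoter windows. The ratio of observed to expected CpG sites was 0.88, 0.80, 0.57 and 0.90 in the same order, against a median of 0.38. Over all 11 member windows, which cover the 10 genes with a separate start of Hoxd11 among them, it ran from 0.26 to 1.13 with a median of 0.75. The highest was at Evx2, whose window lay 1460 bp from the nearest peak. GC boxes were in 4 of the 11 windows, and 35.7% of all promoter windows hold at least 1. The Hoxd13 window had 7, some of which overlap each other. Of the other motifs searched on both strands, TTTATNG, a core shared by CDX and posterior HOX factors, was in 2 windows (10.9% of all windows) and the GATA core AGATAA in 1 (11.2%). The cores searched for CTCF (2.43%) and HNF4 (CAAAGTCCA, 0.475%) were in none. These are matches of letters and say nothing of binding.

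The member peaks were few and weak. They covered a span of 107628 bp, chr2:74655562-74763189 on GRCm38, and none lay farther than 6856 bp from its TSS, so the distance limit left out none. Widths ran from 91 to 714 bp with a median of 203 bp, against 223 bp over all peaks. The annotation put 6 in promoters, 5 in exons, 2 in introns, 1 at a transcription end site and 3 between genes. Mean level over the 6 libraries ran from 0.277 to 2.85 CPM with a median of 0.914 CPM, against a median of 2.71 CPM over all peaks tested and 9.97 CPM over tested promoter peaks. Every member peak was therefore below the median tested promoter peak.

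A peak was tested where its counts passed edgeR's filter, and called where the adjusted p of edgeR's quasi-likelihood fit over all 129588 tested peaks was below 0.05. Of the 17 members 13 were tested, and 4, at Evx2, Hoxd12, Hoxd9 and Hoxd8, were too low to be tested. Of those tested, 5 were called lower in aged libraries, at 4 genes, where 0.528% of all tested peaks were. A single member was called higher, where 1.07% of all tested peaks were, and 1.6% of all tested peaks were called either way. Among all tested promoter peaks 0.863% were called lower. Of the 5, the peaks at Hoxd11, Hoxd1 and the end of Evx2 had no aged library above 0.341 CPM. The filter asks for a minimum level in 3 libraries, and these peaks passed it through the young libraries alone. Their calls and ranks are thus descriptions only. With the replicate number as a block, 1420 of all tested peaks were called lower and 2578 higher, against 684 and 1393 without it, and 6 members were called lower and 1 higher. Among the 7 not called, log2 fold changes of aged over young ran from -1.71 to 0.47. The median over the 13 was -0.57, against -0.004 over all tested peaks. All aged libraries were below all young ones at 8 of the 17 members, 6 of them tested (6.54% of all tested peaks), and above them at 1 (7.32%). Since the choice of locus used this contrast, nothing is read from these shares.

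**Figure D1:**
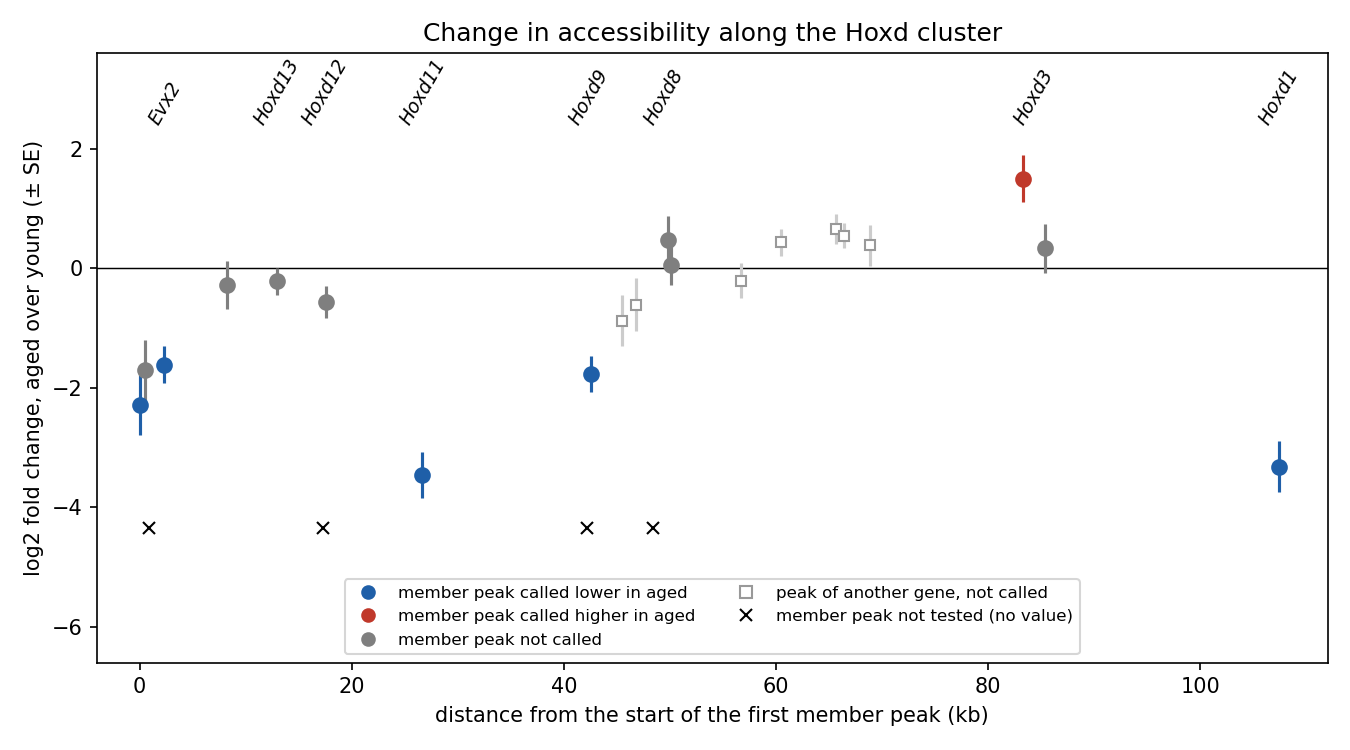
Log2 fold change of aged over young (vertical axis) of each tested peak between the first and last Hoxd and Evx2 peak, by distance in kb from the start of the first (horizontal axis); bars are ± SE, circles are member peaks, squares are peaks of other genes, and crosses mark untested members at an arbitrary height. Peaks called lower stand at Evx2, Hoxd11, Hoxd9 and Hoxd1, with uncalled peaks at Hoxd13, Hoxd12 and Hoxd8 between them.

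Evx2, which in the mouse limb is expressed with Hoxd13 in the forming digits, had 5 peaks, more than any other member gene. Its peak with the highest CPM lay in exon 2 of 3, 1530 bp downstream of the TSS (chr2:74657731-74658047), at 0.740, 0.836 and 0.511 CPM in aged 1, 2 and 4, against 1.97, 2.28 and 2.39 CPM in young 1, 2 and 4. Every aged library was below every young library. The means were 0.695 ± 0.167 CPM in aged and 2.21 ± 0.218 CPM in young libraries (SD, n = 3 each), a log2 fold change of -1.62 (SE 0.31), called lower.

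The peak at the end of the gene (chr2:74655562-74655712), 3782 bp downstream of the TSS, was at 0.123, 0.167 and 0.227 CPM in aged 1, 2 and 4, against 0.915, 0.941 and 0.637 CPM in young 1, 2 and 4. It was called lower with a log2 fold change of -2.29 (SE 0.51), again with no overlap. It rested on 10 counts over the aged libraries (exact 95% Poisson interval 4.80 to 18.4, counting error only) and 43 over the young ones (31.1 to 57.9), and it lost its call when aged 1, aged 2, young 1 or young 2 was left out, at -2.14 to -2.26.

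Between these peaks, another in exon 3 of 3 averaged 0.267 ± 0.212 CPM in aged and 0.947 ± 0.286 CPM in young libraries (SD, n = 3 each). It was not called (log2 fold change -1.71, SE 0.51), although the groups did not overlap. With the replicate number as a block it was called, at -1.91, and likewise without aged 4, at -2.50. An intron peak too low to be tested averaged 0.150 ± 0.0818 CPM in aged and 0.529 ± 0.0981 CPM in young libraries, also without overlap.

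The peak on the other side of the Evx2 start did not share this pattern. It lay 4342 bp upstream, between genes and towards Hoxd13 (chr2:74663706-74663816), at 0.678, 0.836 and 0.738 CPM in aged 1, 2 and 4, against 0.687, 0.792 and 1.75 CPM in young 1, 2 and 4. The groups overlapped and young 4 stood above the other 5 libraries. The log2 fold change was -0.28 (SE 0.40), not called, and 0.03 without young 4. No peak covered the RefSeq start of Evx2 itself.

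Hoxd13, the last gene of the cluster, which patterns digits and the external genitalia, had the peak with the highest CPM of all members, also the widest at 714 bp, in exon 1 of 2 (chr2:74668177-74668890). It was at 2.28, 2.30 and 3.41 CPM in aged 1, 2 and 4, against 3.07, 3.32 and 2.71 CPM in young 1, 2 and 4. The groups overlapped. The log2 fold change was -0.22 (SE 0.23), not called.

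Hoxd12, a further posterior limb gene, had both its peaks upstream of the TSS and between genes. The stronger (chr2:74672974-74673232), 1910 bp upstream, was at 1.79, 1.38 and 1.53 CPM in aged 1, 2 and 4, against 2.79, 1.68 and 2.55 CPM in young 1, 2 and 4. Aged 1 was above young 2, so the groups overlapped, and the log2 fold change of -0.57 (SE 0.27) was not called. The other, too low to be tested, averaged 0.420 ± 0.240 CPM in aged and 0.268 ± 0.114 CPM in young libraries.

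Hoxd11, which with its Hoxa counterpart shapes the forearm and the kidney, had a single peak of 428 bp over its promoter (chr2:74682019-74682446), which holds the whole 300-base RefSeq window whose upstream part is printed above. It was at 0.308, 0.0836 and 0.341 CPM in aged 1, 2 and 4, against 2.79, 2.48 and 2.39 CPM in young 1, 2 and 4. The aged libraries were all close to 0 and the young ones stood well apart from them. In counts this was 5, 2 and 6 in the aged libraries, against 61, 50 and 15 in the young ones, of which young 4 had the lowest depth. The log2 fold change was -3.46 (SE 0.39), called lower, and ranked 40 from the lowest among all tested peaks.

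Hoxd9, which acts with neighbouring Hox genes in limb and axial patterning, had a pair of peaks at its start. The wider one was 521 bp, centred 418 bp downstream of the TSS (chr2:74697885-74698405). It was annotated to the promoter of a second gene, given only by an identifier. Its level was 0.555, 0.710 and 1.14 CPM in aged 1, 2 and 4, against 3.20, 2.72 and 1.91 CPM in young 1, 2 and 4. Aged 4 was the highest aged library and young 4 the lowest young one, with a gap between them. The log2 fold change was -1.77 (SE 0.30), called lower, and -2.59 after all libraries were thinned to the depth of young 4.

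The narrower Hoxd9 peak (chr2:74697687-74697793), 13 bp from the TSS, overlaps 107 bp of the RefSeq window and was too low to be tested. It was at 0.247, 0.293 and 0.114 CPM in aged 1, 2 and 4, against 0.595, 0.396 and 1.12 CPM in young 1, 2 and 4. The groups did not overlap there either. Reads of Hoxd9 and of the second gene annotated at the wider peak cannot be told apart in these counts.

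**Figure D2:**
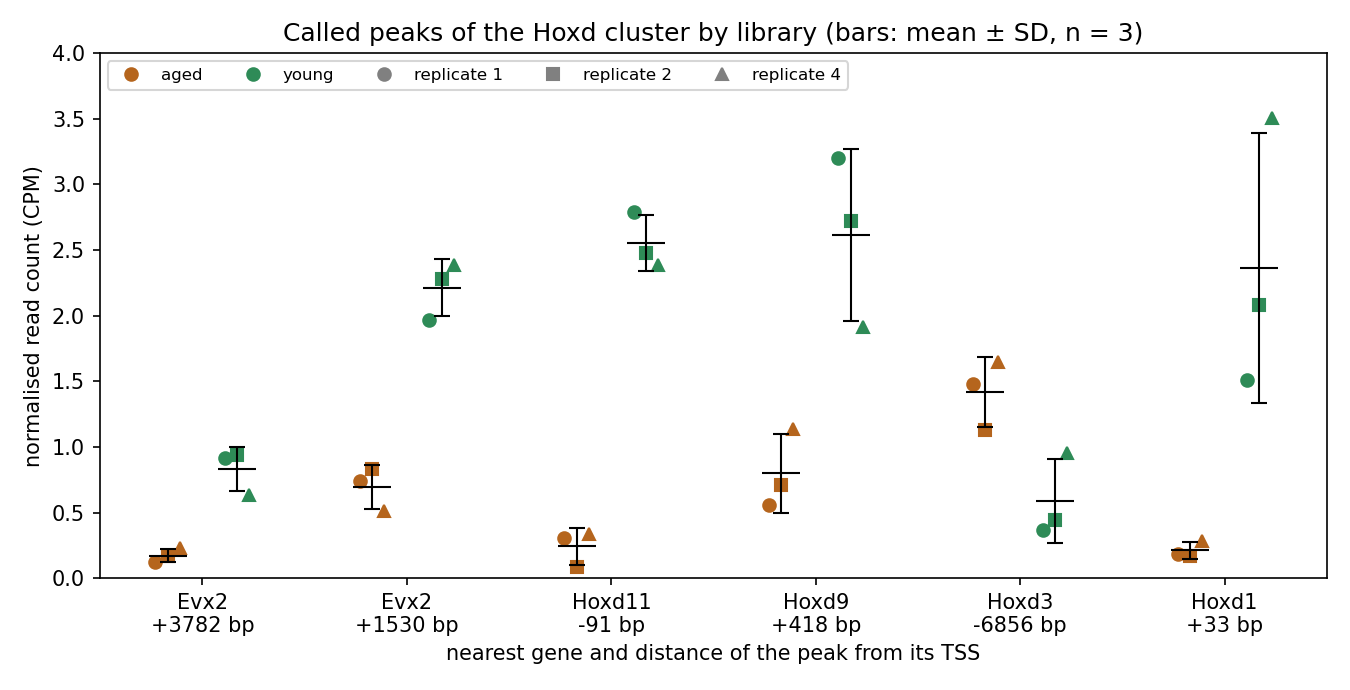
Normalised read count (CPM, vertical axis) of the 6 called member peaks in each library, with aged libraries left of young ones; points are libraries, lines are the mean ± SD (n = 3 each), and labels give the gene and the distance from its TSS. The ages do not overlap at any of the 6, and only the Hoxd3 peak is higher in aged libraries.

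Hoxd8, from the middle of the cluster, had 3 peaks, none called. The peak nearest to its TSS, 625 bp upstream (chr2:74703945-74704035), was too low to be tested, at 0.308, 0.0836 and 0.284 CPM in aged 1, 2 and 4, against 0.183, 0.644 and 0.159 CPM in young 1, 2 and 4. Both exon 1 peaks overlapped between the ages, with log2 fold changes of 0.47 (SE 0.41) and 0.05 (SE 0.33). The second turned to -0.07 without aged 1 and -0.26 without young 2.

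Hoxd3, which helps form the uppermost vertebrae, had the only member peak called higher, at an annotated promoter 6856 bp upstream of the TSS to which distance was measured (chr2:74738743-74738989). It was at 1.48, 1.13 and 1.65 CPM in aged 1, 2 and 4, against 0.366, 0.446 and 0.955 CPM in young 1, 2 and 4. The lowest aged library was above the highest young one by less than the SD of either group. The log2 fold change was 1.50 (SE 0.39), and the call was lost without aged 1, aged 4, young 1 or young 2, at 1.25 to 1.46. The peak nearer to that TSS, in intron 1 of 2 (chr2:74740793-74740995), was at 0.863, 0.878 and 0.738 CPM in aged 1, 2 and 4, against 0.366, 0.842 and 0.955 CPM in young 1, 2 and 4. These overlapped (0.33, SE 0.41, not called).

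Hoxd1, the most anterior gene of the cluster, known in the mouse for the wiring of pain-sensing neurons, had a single peak of 352 bp across its start (chr2:74762838-74763189), overlapping 192 bp of the RefSeq window. It was at 0.185, 0.167 and 0.284 CPM in aged 1, 2 and 4, against 1.51, 2.08 and 3.50 CPM in young 1, 2 and 4. The aged values lay close together and the young ones spread more than 2-fold, with young 4 highest. The counts were 3, 4 and 5 in the aged libraries, against 33, 42 and 22 in the young ones. The log2 fold change was -3.32 (SE 0.43), called lower, and ranked 51 from the lowest among all tested peaks. Hoxd11 and Hoxd1 thus had the largest fold differences of the members, with the peaks of Hoxd9, Hoxd8 and Hoxd3 lying between them.

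Per length, the 5 peaks called lower stood at 0.570 to 2.19 CPM per kb in aged and 5.01 to 6.98 CPM per kb in young libraries. The uncalled Hoxd13 peak stood at 3.73 CPM per kb in aged and 4.24 CPM per kb in young libraries. In young libraries the peaks called lower were thus above Hoxd13 per length, and in aged libraries they were below it. Other uncalled peaks did not all share this order. The stronger Hoxd12 peak stood at 6.05 CPM per kb in aged and 9.04 CPM per kb in young libraries. The upstream Evx2 peak stood at 6.76 CPM per kb in aged and 9.70 CPM per kb in young libraries. Since the called peaks were picked by this contrast, the order is a description. The median over all tested peaks was 10.9 CPM per kb.

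Summed per gene over the same peaks and fitted over 27199 genes, 4 member genes were called lower (0.776% of all genes were) and none higher (1.06%). Evx2 summed to 1.85, 2.22 and 2.04 CPM in aged 1, 2 and 4, against 4.90, 5.20 and 6.69 CPM in young 1, 2 and 4, with a log2 fold change of -1.40 (SE 0.23). Hoxd9 summed to 0.801, 1.003 and 1.25 CPM in aged and 3.80, 3.12 and 3.03 CPM in young libraries (-1.70, SE 0.28, and -2.56 after thinning). Hoxd11 and Hoxd1, with 1 peak each, were also called lower. The sums of Hoxd13 (-0.21, SE 0.25), Hoxd12 (-0.37, SE 0.27), Hoxd8 (0.12, SE 0.27) and Hoxd3 (0.94, SE 0.33) were not called.

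The difference in the summed cluster came from the genes with a peak called lower. Those 4 genes, with 9 peaks, held 3.14, 3.47 and 3.92 CPM in aged 1, 2 and 4, against 13.0, 12.9 and 15.6 CPM in young 1, 2 and 4. The other 4 genes, with 8 peaks, held 9.37, 7.86 and 10.5 CPM in aged and 9.34, 8.57 and 9.08 CPM in young libraries. The first set averaged 10.3 CPM less in aged libraries and the second 0.231 CPM more. This division follows from the calls themselves and is a description.

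**Figure D3:**
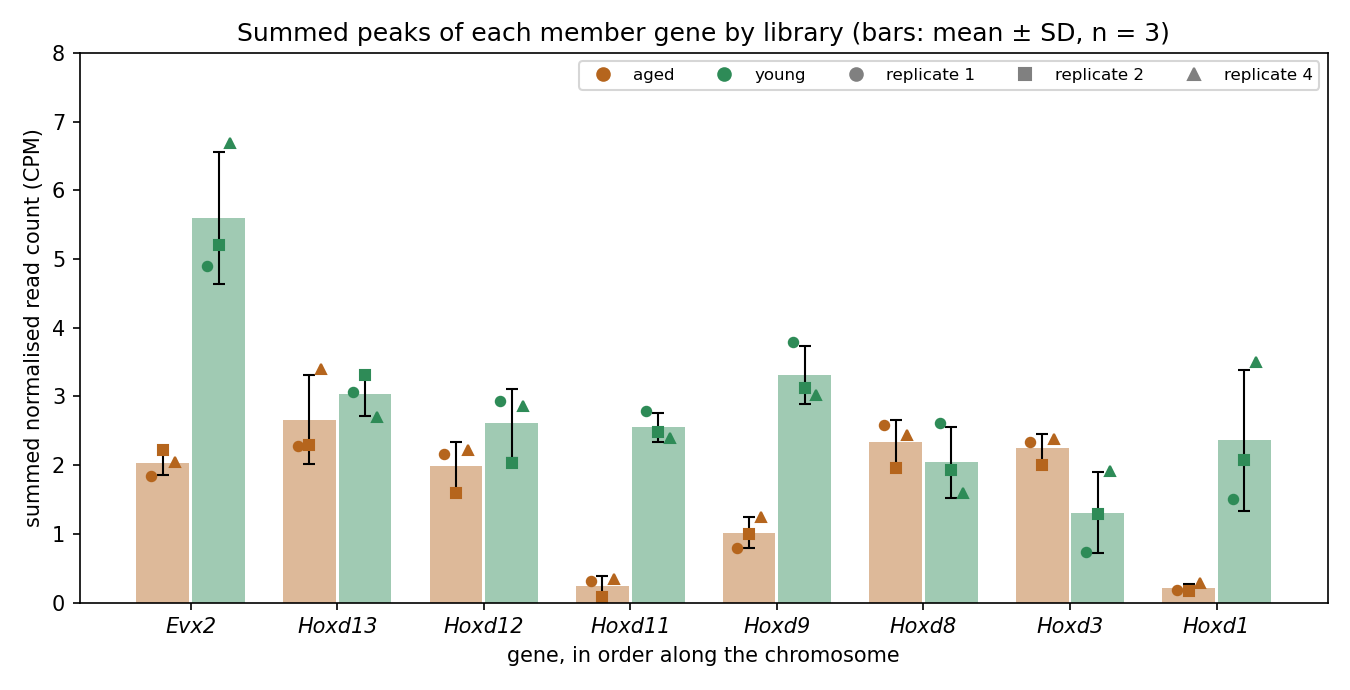
Normalised read count summed over the peaks of each member gene (CPM, vertical axis), with genes in order along the chromosome; bars are means with SD (n = 3 each), aged left of young, and points are libraries. Evx2, Hoxd11, Hoxd9 and Hoxd1 have lower bars in aged libraries with no overlap of points. Hoxd3 has a higher bar in aged libraries, also with no overlap, and the points of Hoxd13, Hoxd12 and Hoxd8 overlap between the ages.

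Between the outermost member peaks lay 8 peaks assigned to other genes, 7 of them tested and none called. Their median log2 fold change was 0.38. At the small RNA gene AL928644.1, between Hoxd9 and Hoxd8, both peaks were below 0, at -0.88 (SE 0.43) and -0.61 (SE 0.44). At Hoxd3os1, an RNA gene antisense to Hoxd3, the tested peaks were at -0.21 (SE 0.29) and 0.43 (SE 0.22). The 3 peaks assigned to the miRNA gene Mir10b, which lies within the cluster beside Hoxd4, were at 0.66 (SE 0.25), 0.54 (SE 0.21) and 0.38 (SE 0.35). The middle one of these (chr2:74721736-74722160) covers 292 bp of the RefSeq promoter window of Hoxd4, the gene with no assigned peak, and averaged 4.78 ± 0.709 CPM in aged and 3.53 ± 0.965 CPM in young libraries (SD, n = 3 each). So the start of Hoxd4, a gene of hindbrain and neck patterning, was in open chromatin at both ages, while the promoter window of Hoxd10, a gene of hindlimb motor neurons, ended 5746 bp short of the nearest peak.

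Peaks beyond the cluster are read against the 0.528% of all tested peaks called lower and the 1.07% called higher. Within 1000000 bp on the Evx2 side, 30 of 42 peaks were tested and 1 was called lower, in intron 3 of 11 of Atf2, a stress-responsive transcription factor, 787529 bp from the cluster (chr2:73867892-73868033). It averaged 3.92 CPM in aged and 8.53 CPM in young libraries (log2 fold change -1.03, SE 0.23, adjusted p = 0.0130). On the Hoxd1 side, 67 of 78 peaks were tested and 1 was called higher, nearest to the predicted gene Gm13660 and 727705 bp away (chr2:75490894-75491401). It averaged 4.65 CPM in aged and 2.68 CPM in young libraries (0.80, SE 0.21, adjusted p = 0.0419). Median log2 fold changes were -0.06 on the Evx2 side and 0.08 on the Hoxd1 side.

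The strongest promoter and first-exon peaks next to the cluster on either side stood far above any member and were not called. On the Evx2 side these were neighbouring peaks assigned to 4930445N08Rik, an antisense RNA gene. The annotation also put them in the promoter of another gene, given only by an identifier, so the peaks cannot be credited to either gene alone. The stronger, 76304 bp from the cluster, was at 57.9, 49.7 and 45.2 CPM in aged 1, 2 and 4, against 55.9, 49.1 and 44.0 CPM in young 1, 2 and 4 (0.02, SE 0.12). The peak in exon 1 of 10 of Mtx2, a mitochondrial import gene 62345 bp away on the Hoxd1 side, was at 21.7, 23.0 and 20.4 CPM in aged and 26.3, 22.4 and 18.5 CPM in young libraries (-0.07, SE 0.13). Both overlapped between the ages. The weaker peak at 4930445N08Rik, 77136 bp away, was at 7.64, 7.103 and 8.75 CPM in aged 1, 2 and 4, against 5.63, 6.39 and 5.10 CPM in young 1, 2 and 4 (0.43, SE 0.16, not called), without overlap.

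**Figure D4:**
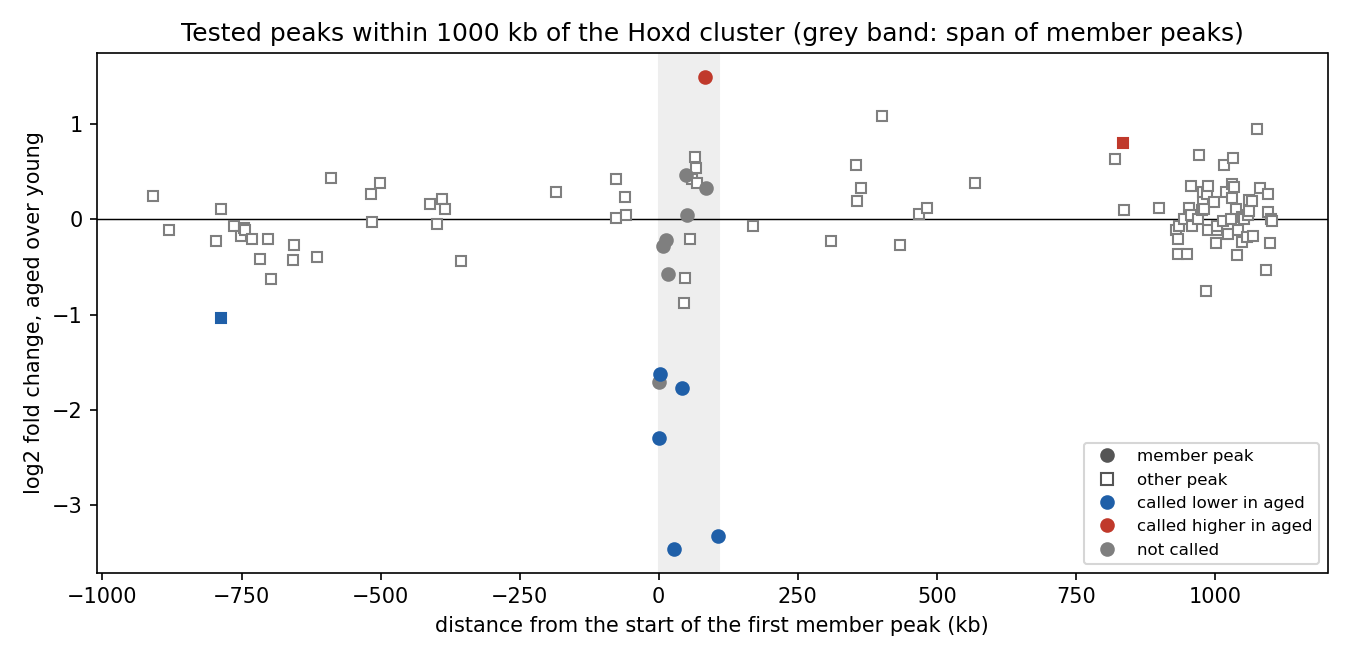
Log2 fold change of aged over young (vertical axis) of every tested peak within 1000 kb of the cluster, by distance in kb from the first member peak (horizontal axis); circles are member peaks, squares other peaks, filled blue lower and filled red higher where called, and the grey band is the span of the members. The 5 members called lower lie at -1.62 or below, and outside the band the only called peaks are those at Atf2 and Gm13660.

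The other Hox clusters were summed per gene in the same way. Of 7 Hoxa, 9 Hoxb and 6 Hoxc genes tested none was called in either direction, and the median log2 fold changes were -0.14, -0.26 and -0.01, against -0.003 over all genes. Some uncalled genes were still lower in every aged library than in any young one. Among these were Hoxb7 (-1.84, SE 0.55), Hoxb1 (-0.73, SE 0.43), Hoxb5 (-0.68, SE 0.22) and Hoxa9 (-0.65, SE 0.22). The rest of the tested ones were Hoxb4 (-0.37, SE 0.19), Hoxa7 (-0.32, SE 0.14), Hoxb8 (-0.26, SE 0.17) and Hoxa10 (-0.14, SE 0.20). The share of all summed genes without overlap is not given here. Hoxb9 was higher in aged libraries without overlap (0.37, SE 0.19). At the level of single peaks, 1 of 18 tested Hoxa peaks was called lower and none of 20 Hoxb and 11 Hoxc peaks was called. That peak, 3625 bp upstream of the Hoxa9 TSS (chr6:52234001-52234313), was at 0.986, 1.05 and 0.965 CPM in aged 1, 2 and 4, against 2.84, 2.48 and 1.91 CPM in young 1, 2 and 4 (-1.32, SE 0.28, adjusted p = 0.00519). Promoter peaks of 5 Hoxa genes together held 27.2 to 34.0 CPM in aged and 28.3 to 36.4 CPM in young libraries, and those of 8 Hoxb genes 9.37 to 11.4 CPM in aged and 9.24 to 13.5 CPM in young libraries, both with overlap. Those of 4 Hoxc genes held 2.39 to 2.67 CPM in aged and 3.47 to 4.46 CPM in young libraries, without overlap, as 6.54% of single tested peaks also did in this direction. Evx1, the Hoxa-linked relative of Evx2, was at 16.8 CPM in aged and 17.5 CPM in young libraries (-0.05, SE 0.12). That the Hoxd genes differ from the other clusters was not tested.

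Genes of factors known to act with or on Hox genes were read in the same sums, over which 0.776% of all genes were called lower and 1.06% higher. Of 9 tested genes of Hox cofactors, 1 was called lower and none higher. This was Meis1, a homeodomain partner of Hox proteins, at 3.76 CPM in aged and 6.56 CPM in young libraries (-0.79, SE 0.19, adjusted p = 0.0261). Of 9 tested regulators of Hox genes none was called. Among them, Cdx1 and Cdx2, homeodomain factors of intestinal identity and activators of Hox genes, were at 0.07 (SE 0.08) and -0.01 (SE 0.06). Of 34 tested Polycomb and Trithorax genes none was called, with a median of -0.03. No peak was assigned to Cdx4, Ctcf or Ring1.

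The genes whose summed accessibility ran most like that of the summed members over the 6 libraries were Rims4 (Pearson r = 0.995), Gm29530 (0.993), 0610038B21Rik (0.988), Mir1247 (0.986) and Gm37777 (0.984). They were the top 5 of 15112 genes ranked, of which 44 had r of 0.95 or more. All 5 were lower in aged libraries, as the choice by likeness implies. Rims4 averaged 9.32 CPM in aged and 15.5 CPM in young libraries, and Gm37777 0.773 CPM in aged and 14.2 CPM in young libraries. These genes and the members were read in the same 6 libraries, with the same differences in age and depth, so r is a description only.

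Counts in peaks per library ran from 16900796 to 23935291 in aged and from 6149680 to 22819924 in young libraries, with young 4 the shallowest. Without young 4, 5 member peaks were called lower and 1 higher. Peaks of all 14 epithelial marker genes were tested and none was called. The promoter peaks, present at 12 of these genes, summed to 376 to 425 CPM in aged and 381 to 448 CPM in young libraries. Of the leukocyte markers, Ptprc and Cd3g had no peak, 8 were tested as summed genes and none was called, and the median log2 fold change was 0.31. Of their 15 tested peaks 1 was called higher, where 1.07% of all tested peaks were. Cd8a, a marker of cytotoxic T cells, held 0.863, 1.09 and 2.10 CPM in aged 1, 2 and 4, against 0.320, 0.347 and 0.796 CPM in young 1, 2 and 4 (1.73, SE 0.46, edgeR adjusted p = 0.0567), and Itgae, of intraepithelial T cells, 10.1, 10.5 and 12.1 CPM in aged and 7.41, 6.64 and 8.60 CPM in young libraries (0.57, SE 0.16, adjusted p = 0.0802). Neither was called, and neither overlapped between the ages; both were picked after their values were seen. The only leukocyte gene with a promoter peak held 4.76 to 8.40 CPM in aged and 3.98 to 5.30 CPM in young libraries. Of the 10 tested markers of fibroblasts and smooth muscle, 5 of endothelium and 5 of neurons and glia none was called as a summed gene. Of single tested peaks, 1 of 28 at endothelium markers and 1 of 22 at neuron and glia markers was called higher, beside the same 1.07%. Promoters of 6 fibroblast and smooth muscle markers held 27.7 to 31.7 CPM in aged and 25.3 to 29.7 CPM in young libraries.

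Since Hox genes mark position along the gut, markers of its segments stand beside these results. Of 5 proximal and 5 distal small intestinal markers none was called as a summed gene. Of single tested peaks, 1 of 67 at proximal markers was called lower (0.528% of all tested peaks were) and none of 31 at distal ones. Without a call, proximal Onecut2 (-0.22, SE 0.07) and Cybrd1 (-0.22, SE 0.08) were lower in aged libraries with no overlap. Distal Slc10a2 (0.14, SE 0.10) was higher, its lowest aged library at 27.18 CPM and its highest young one at 27.07 CPM. The other markers overlapped between the ages. Among these, distal Fabp6 (-0.29), Cubn (-0.16) and Osr2 (-0.18) were below 0 and distal Amn (0.17) above it. Proximal Pdx1 (0.04), Gata4 (0.01) and Slc40a1 (0) were near 0. The median was 0 over proximal and -0.16 over distal markers. Proximal promoters held 120 to 144 CPM in aged and 122 to 144 CPM in young libraries. Promoters of 4 distal markers held 51.5 to 59.6 CPM in aged and 42.8 to 66.6 CPM in young libraries. Of 6 tested colon markers 1 was called higher, Ceacam10, at 17.7 CPM in aged and 7.39 CPM in young libraries (1.38, SE 0.18, edgeR adjusted p = 4.83e-05). Promoters of 4 colon markers together held 33.8 to 40.6 CPM in aged and 28.0 to 31.5 CPM in young libraries, without overlap. Of 7 tested enteroendocrine markers 1 was called lower, Isl1, at 1.77 CPM in aged and 4.52 CPM in young libraries (-1.35, SE 0.23, adjusted p = 0.00115). The part of segment, cell type and depth in the Hoxd differences was not tested.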

How the data were processed

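Per the labels, the 24 sample records are 4 lanes each of 6 libraries, with all lanes of a library in the same count column, so a library is 1 replicate. The authors deposited raw whole-number counts for every consensus peak, together with an annotation table with each peak's position, nearest gene and distance to its TSS. Tools named in the submitters' processing notes include BWA 0.7.17-r1188, MACS2 2.2.7.1 and featureCounts 2.0.1, with build GRCm38. The settings, any Tn5 shift, the annotation release and whether reads or fragments were counted were not given in the sources used here.

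Low peaks were dropped by filterByExpr, TMM factors set the scale, and the ages were compared with edgeR 4.0.16 in R 4.3.3 by the robust quasi-likelihood test, with age as the only term and Benjamini-Hochberg adjustment over all peaks or genes. CPM (counts per 1000000 counts in peaks) use TMM-scaled library sizes. SE are |log2 fold change| over the square root of F. The fit was tested on simulated data. No 2 libraries matched within counting error: the chi-square per peak was 1.71 to 4.13 over all pairs.

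The members and gene lists were chosen with earlier results of these data known. Values in every library are given for called member peaks, for each gene's peak nearest to its TSS and for the 3 with the highest CPM. Of other lists, called genes and Evx1, Cdx1 and Cdx2 are named, along with some uncalled genes picked after their values were seen. Centred on the mean of each age, libraries with the same number correlated at 0.265, 0.199 and 0.148. All were over 0.1, so the replicate numbers were taken to pair the libraries. The main fit has age as its only term and leaves this pairing out, and the replicate block is given as an alternative. Alternatives were other scalings and filters, DESeq2 1.42.0, limma 3.58.1 (voom), a replicate block, thinning, other thresholds and leaving out each library. Peak sequences were not used here.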

Additional observations from a re-analysis of the deposited data

How the results depend on the processing

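The summed member peaks stayed lower in aged libraries and called under all 16 alternatives, at -1.20 (peaks within 1000 bp only) to -0.74. The peaks at Hoxd11 (-3.82 to -2.96), Hoxd9 (-2.59 to -1.60), Hoxd1 (-3.59 to -3.07) and in Evx2 exon 2 (-1.79 to -1.44) kept their call under every alternative that tested them. The Evx2 end-site peak lost its call in 5 of 14 alternatives, and the Hoxd3 peak in 6 of 14. The count of members called higher, 1, was 0 with library size only, with DESeq2, after thinning and at an adjusted p below 0.01, and 0 to 1 with a library left out. The count called lower, 5, was 2 after thinning, where 3 members were tested, and 4 to 6 with a library left out. Over all peaks, 1393 higher and 684 lower became 830 higher with DESeq2, 575 higher and 295 lower after thinning, and 803 higher and 439 lower at 0.01, and ran from 742 to 1462 higher and 474 to 646 lower with a library left out. Higher calls were 742 without young 2 and 886 without aged 4. The replicate block gave 2578 higher and 1420 lower, called 6 members lower by adding the Evx2 exon 3 peak, and changed no other member call. Differences near 0 turned sign at summed Hoxd8 (-0.05 after thinning) and, with a library left out, at the second Hoxd8 exon 1 peak (-0.26 to 0.41), the Hoxd3 intron peak (-0.08 to 0.63) and the upstream Evx2 peak (-0.52 to 0.03). The cause of these shifts was not tested. Member peaks held 155 to 488 counts in all per library, and those called lower at Hoxd11 and Hoxd1 held 13 and 12 over the aged libraries.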
